A study of Mus musculus with 6 samples.

Results

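Naive-like conventional CD4 T cells of the mouse lung were examined here as 1318 barcodes, chosen from 25704 barcodes that passed filters in 6 single-cell libraries. A passing barcode held at least 1000 unique molecular identifiers (UMIs, each standing for 1 captured RNA molecule), at least 500 genes and at most 10% of its UMIs in mitochondrial genes. A member then had at least 2 UMIs of *Cd3e*, *Cd3d* and *Cd3g* together, at least 1 of *Cd4* and at least 1 of *Lef1*, and 0 of *Cd8a*, *Cd8b1*, *Foxp3* and *Cd79a*. The levels of the 9 genes of this rule define the cells and were not tested, and contrasts between gates are descriptions. How many cells met the rule was compared between the treatment groups, which the rule did not use. All mice were 12-week-old males of the hCTLA4 line, a humanized knock-in in which ipilimumab can bind the CTLA4 protein, and all had received bleomycin by the oropharyngeal route at 1.25 U/kg in 2 doses, a model of lung fibrosis. From day 21 after the last bleomycin dose, 3 control mice received an IgG1 isotype antibody and 3 mice received ipilimumab, an antibody against human CTLA4. Both were given at 5 mg/kg for 4.5 weeks, and cells from the digested right lung were loaded. No mouse without bleomycin and no mouse without the knock-in entered, so neither effect can be read here. The labels name no animal for a library, while the study counts its groups in mice, so the libraries are called mice below, and p-values measure the spread between them.

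CD4 T cells leave the thymus as naive cells that recirculate between blood and lymphoid organs and enter division and effector differentiation when their receptor meets antigen together with costimulation through CD28. LEF1 and TCF-1, the product of *Tcf7*, are transcription factors that mark the naive and stem-like state, and the interleukin-7 receptor *Il7r* carries the survival signal for resting cells. CTLA4 competes with CD28 for the same ligands and restrains this step, which is why the resting pool is of interest under ipilimumab.

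The members numbered 219, 193 and 219 in IgG1 mice 1, 2 and 3 and 221, 218 and 248 in ipilimumab mice 1, 2 and 3, which is 1318 of the 5209 barcodes in the T cell gate. Their UMIs summed to between 1930525 and 2409160 per mouse. The whole libraries held between 37666042 and 48612412 UMIs. The median member held between 7584 and 9056 UMIs and between 2375.5 and 2671 genes, and its mitochondrial share lay between 3.15% and 3.56%. No member barcode was shared by any pair of libraries. Most members lay far inside the *Lef1* threshold, since between 167 and 205 of them per mouse held 3 or more UMIs of it. Just inside the threshold, at 1 UMI, were 11, 18 and 12 cells in IgG1 mice and 16, 23 and 25 in ipilimumab mice. Just outside, at 0 UMIs, were 20, 27 and 22 conventional CD4 cells in IgG1 mice and 36, 58 and 63 in ipilimumab mice.

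The first question was whether the cells carry the identity that their name gives them. Levels in this comparison are counts per 1000000 UMIs of the gate (CPM), as the mean over 6 mice, and are given with no test because the gates were set by related genes. *Tcf7* (chromosome 11, 52252371 to 52283014, minus strand, mm10) stood at 348 CPM in the members, 316 in naive-like CD8 T cells, 170 in *Lef1*-negative conventional CD4 T cells and 2.36 in the *Cd79a*-positive B cell gate. *Il7r* (chromosome 15, 9505788 to 9530176, minus strand, mm10) stood at 374, 441, 348 and 4.63 in the same order. *Tcf7* was thus higher than in the *Lef1*-negative CD4 cells in 6 of 6 mice, whereas *Il7r* was higher in only 3 of 6. At least 1 UMI of *Tcf7* was found in 87.0% of members and in 1.27% of the B cell gate, whose median cell held between 5282 and 6741 UMIs. For *Il7r* these shares were 77.8% and 1.49%. When each cell was thinned to 2000 UMIs, the median over mice was 49.0% for *Tcf7* and 45.4% for *Il7r*, which shows how far such shares follow depth.

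The naive and quiescence genes set the members apart from their *Lef1*-negative counterparts. Of the 22 genes of that list, 18 were higher in the members in 6 of 6 mice and 0 were lower, against 7.02% higher and 8.39% lower over all 9562 genes. *Igfbp4*, a binding protein for insulin-like growth factors, stood at 191 CPM in the members and 3.19 in the *Lef1*-negative cells, and its 6 values in the members lay between 144 and 233. *Ccr7*, a chemokine receptor for entry into lymph nodes, stood at 363 against 80.2. *Satb1*, a chromatin organizer, stood at 2022 against 336, and *Bach2*, a repressor of effector differentiation, at 1917 against 818. *Klf2*, which drives the expression of egress receptors, stood at 640 against 310. Ribosomal protein genes were higher in the members in 6 of 6 mice for 74 of 76 genes. In the opposite direction, 16 of 26 memory and effector genes and 13 of 18 costimulatory and inhibitory receptors were lower in the members in 6 of 6 mice. Among them, *S100a4*, a calcium-binding protein of antigen-experienced cells, stood at 436 against 1318, the lineage factor *Rora* at 386 against 1205, and *Ctla4* itself at 540 against 1231.

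Set beside naive-like CD8 T cells, the members had higher levels of several genes of helper cells, which were chosen for naming after their values were seen. *Cd40lg*, the ligand with which helper cells act on B cells and dendritic cells, stood at 75.9 CPM against 3.28. *Gata3*, which acts in CD4 commitment, stood at 71.6 against 23.4, and the folate receptor family gene *Izumo1r* at 46.2 against 7.26. The costimulatory receptor *Icos* stood at 325 against 123, *Cd28* at 623 against 394 and *Ctla4* at 540 against 182. Each of these 6 genes was higher in the members in 6 of 6 mice, as were 14.6% of all 9562 genes. By list, 14 of 22 cell division genes, 8 of 10 regulatory T cell genes and 4 of 8 CD4 lineage factors were higher in 6 of 6 mice. Of the CD4 lineage factors 2 were lower in 6 of 6 mice, and of the other lists just named 0 genes were. The cytotoxic side was lower in the members, with *Ccl5* at 539 against 2729, *Nkg7* at 81.8 against 365 and the CD8 lineage factor *Runx3* at 93.2 against 239. All 7 natural killer and cytotoxic markers, and 61 of 76 ribosomal protein genes, were lower than in CD8 cells in 6 of 6 mice, against 10.3% of all genes. The naive list did not separate these gates in 1 direction, with 7 genes higher and 9 lower.

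**Figure D1:**
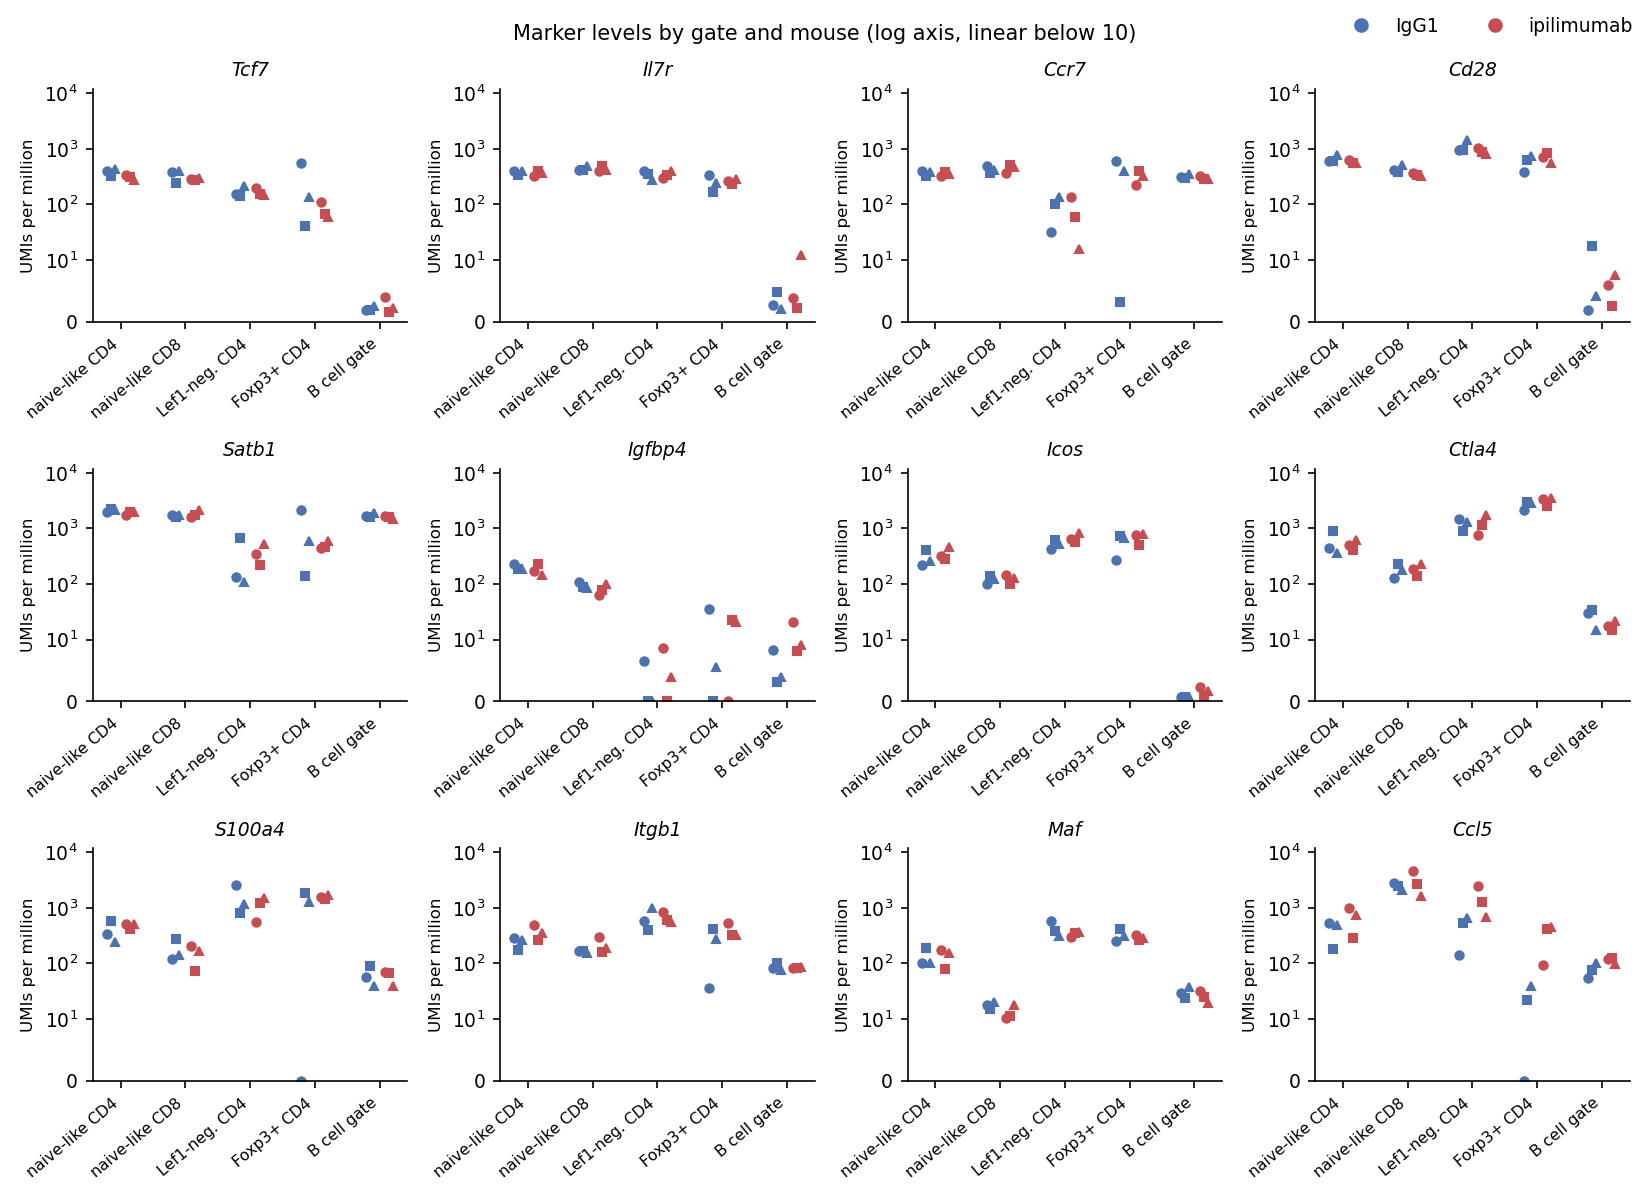
Each point is 1 mouse (blue, IgG1; red, ipilimumab; circle, square and triangle for replicates 1, 2 and 3), and the vertical axis is UMIs per 1000000 UMIs of the gate (CPM), logarithmic above 10 and linear below. *Tcf7* stood at 348 CPM in naive-like CD4 cells and 2.36 in the B cell gate, while *Satb1* and *Ccr7* were also abundant in B cells.

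The members were mixed in how far they fit the name naive-like. A UMI of *Ccr7* was found in 72.5% of members, but this receptor is not specific here, because the B cell gate held it in 73.3% of its cells. UMIs of at least 2 of 10 memory genes (*S100a4*, *Ccl5*, *Nkg7*, *Cxcr3*, *Cxcr6*, *Ccr2*, *Itgb1*, *Maf*, *Id2* and *Icos*) were found in 42.5%, 52.8% and 51.1% of members in IgG1 mice and in 55.2%, 51.8% and 58.9% in ipilimumab mice, so over 50% in 5 of 6 mice. Members with these genes, compared with members without them in the same mouse, had lower levels of 19 of 22 naive genes in 6 of 6 mice, with a median log2 ratio of -0.75, as were 6.92% of all 9562 genes. *Igfbp4* stood at 107 CPM in them and 329 in the rest, and *Ccr7* at 261 against 538. Their cell division genes were higher for 22 of 22 genes in 6 of 6 mice, as were 28.4% of all genes. *Mki67*, a marker of dividing cells, stood at 148 against 0.38 CPM, so that nearly all of its UMIs lay in these cells. Over all members *Mki67* was found in 7.21%, against 1.77% of the B cell gate. These groups were split by measured genes and by a score that rises with depth, and the macrophage markers described below were also higher in the members with memory genes for 14 of 19 genes, so the contrast is a description only.

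The antigen receptor was read only in part by these libraries, which capture the end of the transcript away from the variable segments. A beta chain V segment was seen in 42, 51 and 47 members of IgG1 mice and in 56, 34 and 48 of ipilimumab mice. Between 15 and 19 of 35 segments were seen per mouse. The commonest was *Trbv12-2* in 5 mice and *Trbv2* in IgG1 mouse 1, and it took between 17.0% and 29.4% of the cells with a segment. For the alpha chain, between 25 and 38 of 128 segments were seen in between 38 and 56 cells. No single segment made up most of the readable cells in any mouse.

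The next question was whether the number of these cells differed under ipilimumab. They made up 4.83%, 4.47% and 6.55% of passing barcodes in IgG1 mice and 4.27%, 5.24% and 5.93% in ipilimumab mice, and the groups overlapped. The means were 5.28% ± 1.11 (SD, n = 3) and 5.15% ± 0.833 (SD, n = 3), a difference of -0.134 points with a two-sided exact permutation p of 0.9. With 3 mice against 3, the smallest p this test can give is 0.1. Of the T cell gate they made up 26.3%, 26.0% and 25.9% in IgG1 mice and 24.1%, 23.8% and 25.9% in ipilimumab mice. The difference there was -1.48 points (exact permutation p = 0.1), and the nearest mice of the groups, at 25.887% and 25.860%, all but touched. In edgeR's quasi-likelihood test over the 8 gates, the change relative to passing barcodes was -0.04 on the log2 scale (SE 0.26, adjusted p = 0.895), and over the 6 T cell gates it was -0.08 (SE 0.08, adjusted p = 0.323). Such shares depend on every other cell recovered, and a change in tissue number was not measured.

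A larger difference lay in the balance within the conventional CD4 cells. *Lef1*-positive cells made up 91.6%, 87.7% and 90.9% of them in IgG1 mice and 86.0%, 79.0% and 79.7% in ipilimumab mice. With 1 UMI of *Lef1* as the limit, all 3 ipilimumab mice lay below all 3 IgG1 mice at full depth. With 2 UMIs as the limit, a setting added after the values were seen, the difference was -10.1 points and the groups overlapped, with IgG1 mouse 2 at 79.5% and ipilimumab mouse 1 at 79.8% (exact permutation p = 0.2). With each cell thinned to 2000 UMIs the difference was -16.1 points, and the groups overlapped, with IgG1 mouse 2 at 66.2% and ipilimumab mouse 1 at 69.0% (exact permutation p = 0.2). The means were 90.1% ± 2.07 (SD, n = 3) and 81.6% ± 3.85 (SD, n = 3), a difference of -8.50 points at the smallest exact permutation p possible, 0.1. On the other side of this balance, *Lef1*-negative conventional CD4 cells made up 2.40%, 3.64% and 2.60% of the T cell gate in IgG1 mice and 3.93%, 6.34% and 6.57% in ipilimumab mice. By edgeR their number was higher under ipilimumab relative to passing barcodes, by 1.06 on the log2 scale (SE 0.33, adjusted p = 0.0254), and relative to T cells by 0.97 (SE 0.27, adjusted p = 0.0526), which missed the threshold of 0.05. When barcodes with RNA of another cell type (described below) were left out, the adjusted p became 0.0583 relative to passing barcodes and 0.00683 relative to T cells. With cells thinned to 2000 UMIs, edgeR gave 1.22 (SE 0.32, adjusted p = 0.00471) relative to passing barcodes and 1.05 (SE 0.27, adjusted p = 0.00471) relative to T cells.

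Within the members, the shares with 2 or more memory genes given above overlapped between the groups, and the difference of 6.48 points had an exact permutation p of 0.2. With each member read at 2000 UMIs, leaving out 4 and 2 shallower members of ipilimumab mice 1 and 2, the shares were 22.4%, 30.6% and 24.7% against 34.1%, 26.4% and 39.9%. That difference was 7.60 points (exact permutation p = 0.2), so neither depth gave a difference beyond the spread.

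**Figure D2:**
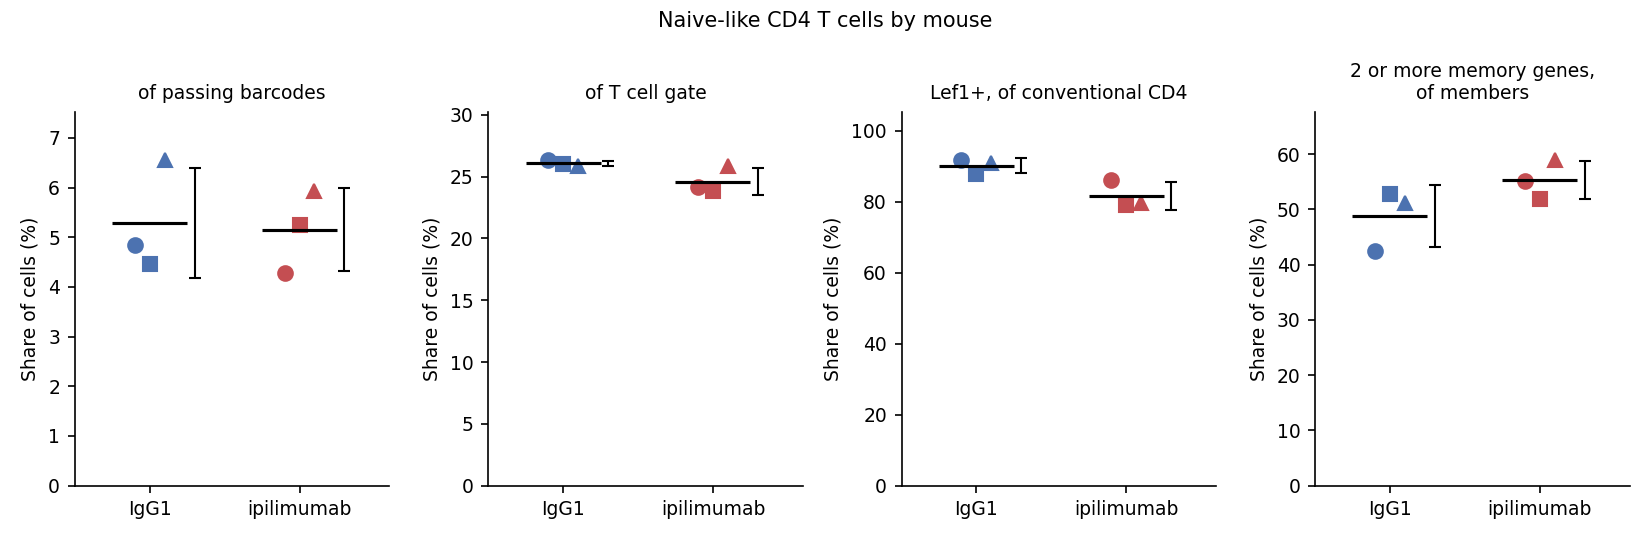
The vertical axes give shares of cells in percent, each point is 1 mouse (circle, square and triangle for replicates 1, 2 and 3), the line is the group mean and the bar its SD (n = 3). The groups overlap for the share of passing barcodes and for memory genes, and *Lef1*-positive cells have means of 90.1% and 81.6% of conventional CD4 cells at full depth.

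For gene levels, the UMIs of all members were summed per mouse and 9562 genes were tested with edgeR. A lower sum can come from fewer cells with a transcript or from less RNA per cell, which cannot be told apart in sums. At an adjusted p under 0.05 and a log2 fold change beyond 0.3 in size, 0 genes were called, or 0% of those tested. At an unadjusted p under 0.05 there were 579, and DESeq2 called 5 genes, *Cd36*, *Zeb2*, *Ccl9*, *Ifitm3* and *Scgb1a1*. With no filter on low counts 256 of 19326 genes were called. With doublets left out 67 of 9340 genes were called, all of them higher under ipilimumab, and 7 of them were among the 19 listed macrophage markers. In 514 genes (5.38%) every ipilimumab mouse lay above every IgG1 mouse, and in 531 genes (5.55%) every one lay below. The most abundant transcripts, *Malat1*, *Gm42418*, *Tpt1*, *Tmsb4x* and *mt-Atp6*, had log2 fold changes of -0.03, -0.57, -0.04, 0.02 and -0.08, and none was called. All levels below are CPM scaled by edgeR's TMM factors, and all fold changes are ipilimumab over IgG1.

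None of the receptor genes that bear on the antibody was called. *Ctla4* (chromosome 1, 60887000 to 60915832, plus strand, mm10) stood at 443, 887 and 376 CPM in IgG1 mice and 490, 427 and 609 in ipilimumab mice. These values overlap, with a log2 fold change of -0.16 (SE 0.27, edgeR adjusted p = 0.959), and IgG1 mouse 2 was the highest of all. Leaving out that mouse turned the log2 fold change to 0.32, and over single left-out mice it ranged from -0.39 to 0.32. The counts are those assigned to the mouse gene model, and transcript from the human exons was not counted separately. *Icos* stood at 223, 406 and 261 CPM against 316, 295 and 446, a log2 fold change of 0.25 (SE 0.21, edgeR adjusted p = 0.903), again with overlap, and from 0.04 to 0.55 over single left-out mice. *Cd28*, the activating partner of CTLA4, stood at 619, 597 and 786 CPM against 623, 564 and 551, a log2 fold change of -0.20 (SE 0.12, edgeR adjusted p = 0.855) that ranged from -0.28 to -0.07 over single left-out mice. Of the 18 costimulatory and inhibitory receptors tested, 0 had an unadjusted p under 0.05, beside 579 of all 9562 genes, and their median log2 fold change was 0.14, beside 0.00 over all genes. *Pdcd1*, which encodes the checkpoint receptor PD-1, had the smallest p of that list, at 5.6, 6.2 and 8.1 CPM against 5.8, 13.1 and 18.2 and an edgeR adjusted p of 0.817.

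Genes of the naive state were slightly lower at the median, with none called. *Tcf7* stood at 400, 326 and 438 CPM in IgG1 mice and 330, 326 and 273 in ipilimumab mice. Ipilimumab mouse 3 was the lowest, and the groups overlapped at IgG1 mouse 2. The log2 fold change was -0.33 (SE 0.13, edgeR adjusted p = 0.80). *Il7r* stood at 397, 341 and 408 CPM against 320, 418 and 362, with a log2 fold change of -0.06 (SE 0.12, edgeR adjusted p = 0.960) that ranged from -0.16 to 0.03 over single left-out mice, above 0 without ipilimumab mouse 1. *Treml2*, a receptor of the TREM family found on lymphocytes and myeloid cells, stood at 20.0, 17.1 and 24.6 CPM against 13.3, 15.1 and 13.7 (log2 fold change -0.56, SE 0.22, edgeR adjusted p = 0.80). Every ipilimumab mouse was below every IgG1 mouse for *Treml2*, and among the 22 naive genes this held for 2 and the reverse for 0, with a median of -0.11, beside 5.55% of all genes. Without the barcodes that carried other RNA it held for 1 of 22. The rule's own genes are given as a description, with *Cd4* at 224, 222 and 209 CPM against 213, 201 and 225. *Lef1* stood at 1726, 1425 and 1523 CPM against 1399, 1470 and 1284.

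Per cell, *Satb1* was found in 90.4%, 93.3% and 91.3% of members in IgG1 mice and in 84.6%, 87.6% and 82.3% in ipilimumab mice. The groups did not overlap, and at 2000 UMIs they lay at 84.5%, 88.6% and 82.6% against 74.7%, 78.7% and 75.4%. The exact permutation p was 0.1, the smallest possible, and 0.492 after adjustment over the 32 genes read this way, which was also the lowest adjusted p of those genes. Its B cell gate share was 90.7%, so free RNA cannot be judged from B cells for this gene. That share was also lower under ipilimumab, with group means of 92.8% in IgG1 mice and 89.1% in ipilimumab mice (exact permutation p = 0.1). The lower share of cells with *Satb1* was thus also seen in the B cell gate, but not in the other T cell gates read. In naive-like CD8 T cells the group means were 91.0% in IgG1 mice and 90.7% in ipilimumab mice (exact permutation p = 0.8). In *Lef1*-negative CD4 cells they were 27.0% and 39.9% (exact permutation p = 0.1). The p-values of these other gates are not adjusted. The summed level of *Satb1* in the members overlapped between the groups, at 1999, 2261 and 2195 CPM against 1721, 2005 and 1960.

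Memory and effector genes had a median above that of all genes, with none called. Of 26 tested members of that list, 6 had an unadjusted p under 0.05 with higher values under ipilimumab and 0 with lower values, against 579 of 9562 genes in either direction. In 4 every ipilimumab mouse lay above every IgG1 mouse, against 5.38% of all genes, and in 3 of 25 without the barcodes that carried other RNA. The median log2 fold change was 0.28. *Il2*, the growth factor that activated helper cells release, stood at 3.07, 3.62 and 1.79 CPM in IgG1 mice and 5.80, 10.1 and 10.1 in ipilimumab mice. All ipilimumab mice were above, at a log2 fold change of 1.61 (SE 0.41, edgeR adjusted p = 0.555). The IgG1 levels rest on few UMIs, so this separation and the size of the fold are a description only. A UMI of *Il2* was found in only 3.64% of members, against 0.85% of the B cell gate. *Ahnak*, a large scaffold protein of antigen-experienced T cells, stood at 214, 210 and 183 CPM against 252, 249 and 288 (log2 fold change 0.38, SE 0.11, edgeR adjusted p = 0.687). *S100a11* stood at 268, 299 and 198 CPM against 319, 335 and 309, also with no overlap. The integrin chain *Itgb1* stood at 292, 174 and 275 CPM against 480, 275 and 345, a log2 fold change of 0.57 (SE 0.22, edgeR adjusted p = 0.790), and the groups overlapped. *S100a4* was found in 16.0%, 20.2% and 15.1% of members against 29.4%, 20.2% and 34.3%, and in 5.31% of the B cell gate. Its exact permutation p was 0.2, or 0.492 after adjustment over the 32 genes read per cell. After thinning the difference was 9.36 points, at the smallest p possible (exact permutation p = 0.1, not adjusted). For *S100a6* the difference after thinning was 4.81 points (exact permutation p = 0.3). *Il17a* showed how a few cells can set such a value, since 416 of its UMIs came from 9 cells of IgG1 mouse 2. It stood at 215 CPM there and between 2.05 and 33.2 CPM in the other 5 mice. Its log2 fold change was -2.40 with all mice and 1.69 without that one, where neither was called.

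Among the regulatory T cell genes the smallest p belonged to *Nrp1* (chromosome 8, 128358604 to 128503363, plus strand, mm10). It encodes neuropilin-1, a coreceptor found on regulatory and some activated T cells. It stood at 18.9, 14.0 and 22.4 CPM in IgG1 mice and 40.2, 34.7 and 43.6 in ipilimumab mice. All ipilimumab mice lay above all IgG1 mice, at a log2 fold change of 1.09 (SE 0.20), but the edgeR adjusted p was 0.201. Without barcodes that carried other RNA the log2 fold change was 0.90 and the groups were still apart. Cells with its UMI made up 11.4% of members and 4.20% of the B cell gate, and after thinning the median over mice was 4.13% of members. It was the only 1 of the 12 genes of that list with an unadjusted p under 0.05, near the share of all genes (579 of 9562), and the list's median was 0.25, beside 0.00 over all genes. *Ikzf2*, the Helios factor of regulatory cells, stood at 176, 111 and 136 CPM against 124, 96.1 and 143. The *Foxp3*-positive cells themselves are outside the rule, and a cell whose *Foxp3* transcript was missed would stay among the members.

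The 5 genes of smallest p among those with lower values under ipilimumab had log2 fold changes between -0.63 and -0.49. *Ubap2* (chromosome 4, 41194313 to 41275144, minus strand, mm10), a ubiquitin-associated protein, stood at 141, 133 and 146 CPM in IgG1 mice and 104, 97.6 and 96.9 in ipilimumab mice. Its log2 fold change of -0.49 (SE 0.10) had the smallest p of the lower genes, with an edgeR adjusted p of 0.435. *Kidins220*, a membrane scaffold that takes part in receptor signalling, stood at 134, 149 and 125 CPM against 103, 86.5 and 98.1. *Tgfbr3*, the coreceptor betaglycan of TGF-beta, stood at 70.1, 81.1 and 74.8 CPM against 54.3, 53.8 and 46.0, and *Igf1r*, the receptor for insulin-like growth factor 1, at 124, 146 and 147 against 106, 83.0 and 103. *Tbc1d30*, a GTPase-activating protein, stood at 46.6, 54.8 and 53.8 CPM against 35.7, 30.2 and 33.9. For each of these 5 genes every ipilimumab mouse lay below every IgG1 mouse, with all members and without the barcodes that carried other RNA. Over all genes this held for 5.55% and 5.35%. The 5 genes were picked by their p, so their separation is a description and no further support. None was called.

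**Figure D3:**
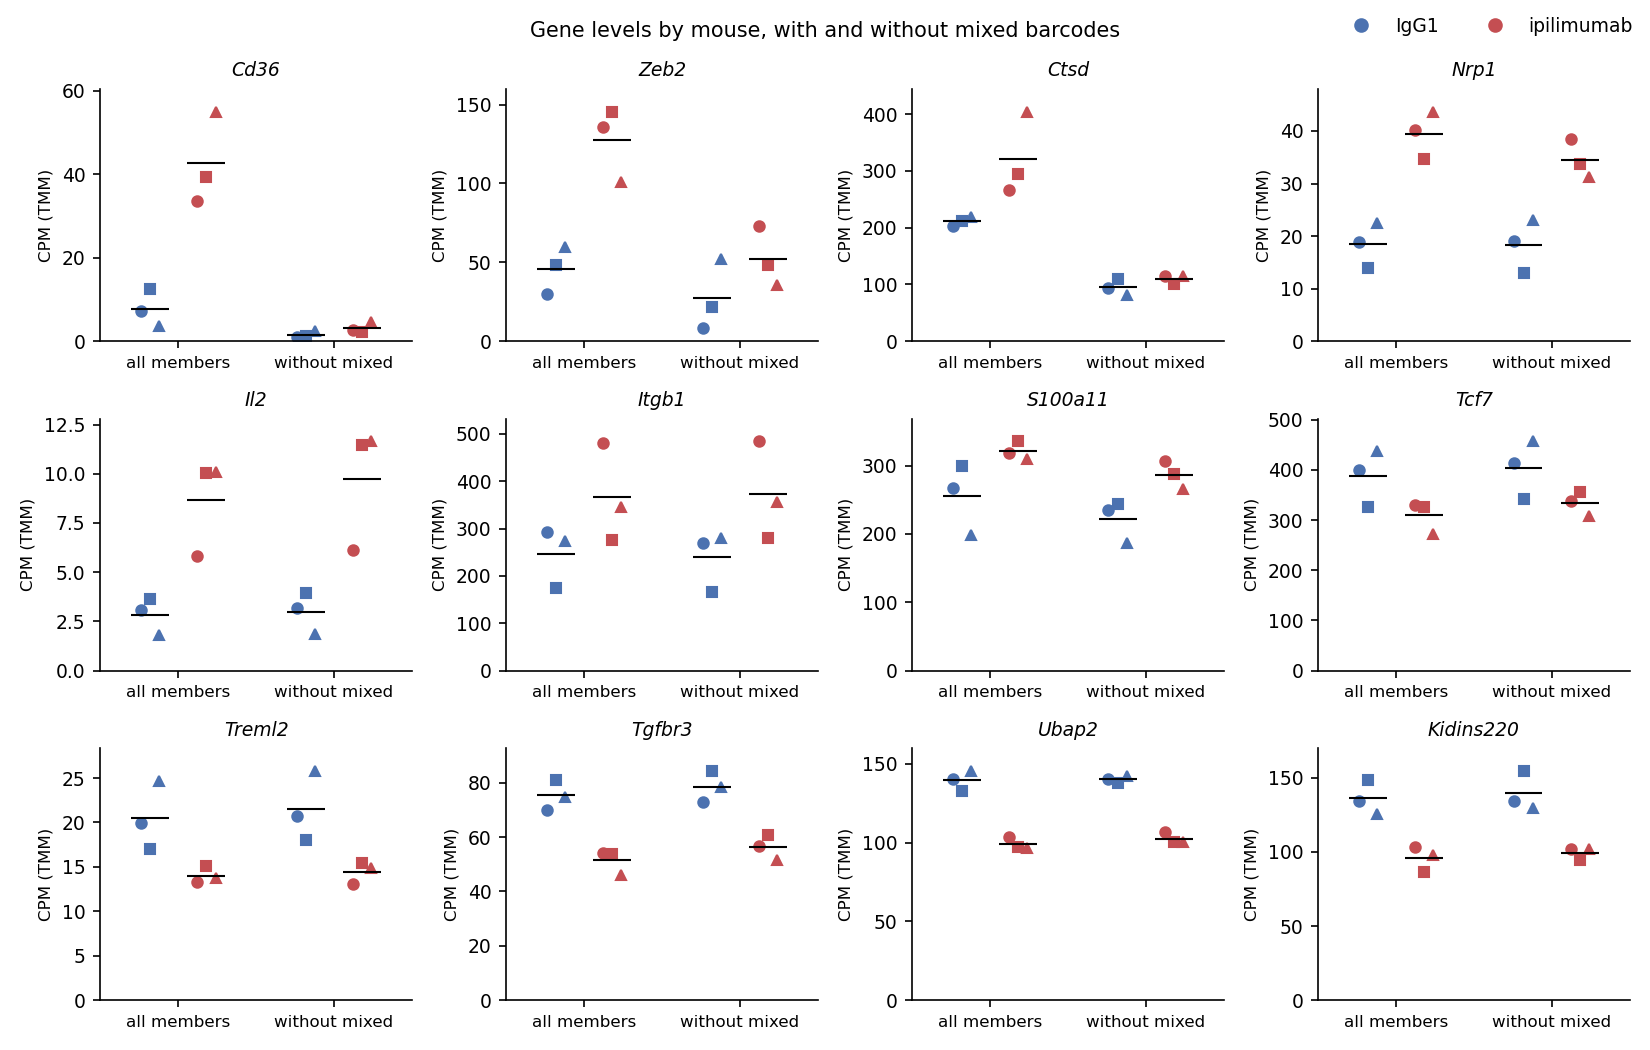
Each panel gives CPM scaled by TMM in each mouse (blue, IgG1; red, ipilimumab; line, group mean; n = 3), with all members on the left and without the 37 mixed barcodes on the right. *Cd36* and *Ctsd* have a smaller gap without those barcodes. Macrophage markers chose 27 of them, though not by *Ctsd* itself, so the smaller gap is a description only. *Nrp1*, *Il2*, *Ubap2*, *Kidins220* and *Tgfbr3*, all named for a small p, keep separate groups.

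Of the other T cell lists none had a gene called. Early activation genes had a median log2 fold change of -0.08, with 2 of 23 at an unadjusted p under 0.05, both lower, beside 579 of all 9562 genes in either direction. These were *Nfkbia*, an inhibitor of NF-kappa-B, at 318, 245 and 359 CPM against 195, 228 and 243, and *Cd69*, which holds cells in tissue, at 114, 110 and 202 against 90.0, 84.5 and 116. Interferon-stimulated genes had a median of -0.09, with 2 of 34 at an unadjusted p under 0.05, both higher, which is near the share of all genes. In 4 of the 34 every ipilimumab mouse lay above every IgG1 mouse and in 2 below, against 5.38% and 5.55% of all genes. The 2 of smallest p were *Irf9*, a subunit of the interferon response complex, at 32.7, 23.3 and 30.5 CPM against 37.3, 39.7 and 44.4, and the GTPase *Iigp1* at 29.7, 12.9 and 17.9 against 27.4, 36.7 and 38.8. Cytokine receptors and STAT signalling had a median of 0.01 over 30 genes, led by the interleukin-18 receptor chain *Il18r1* at 117, 117 and 62.7 CPM against 156, 122 and 252. Homing and retention genes had a median of 0.02 over 17, with 2 higher and 2 lower at an unadjusted p under 0.05, beside the same 579 of 9562 genes. The gut homing receptor *Ccr9* stood at 12.8, 21.7 and 8.96 CPM against 10.8, 3.52 and 2.02, with overlap and a log2 fold change of -1.38 (SE 0.52, edgeR adjusted p = 0.790), which became -2.38 without ipilimumab mouse 1. T cell receptor genes had a median of 0.00 over 20, CD4 lineage factors of -0.10 over 8, and survival genes of 0.04 over 20. Cell division genes had a median of -0.08 over 22, heat shock genes of -0.18 over 10 and ribosomal protein genes of -0.07 over 76.

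**Figure D4:**
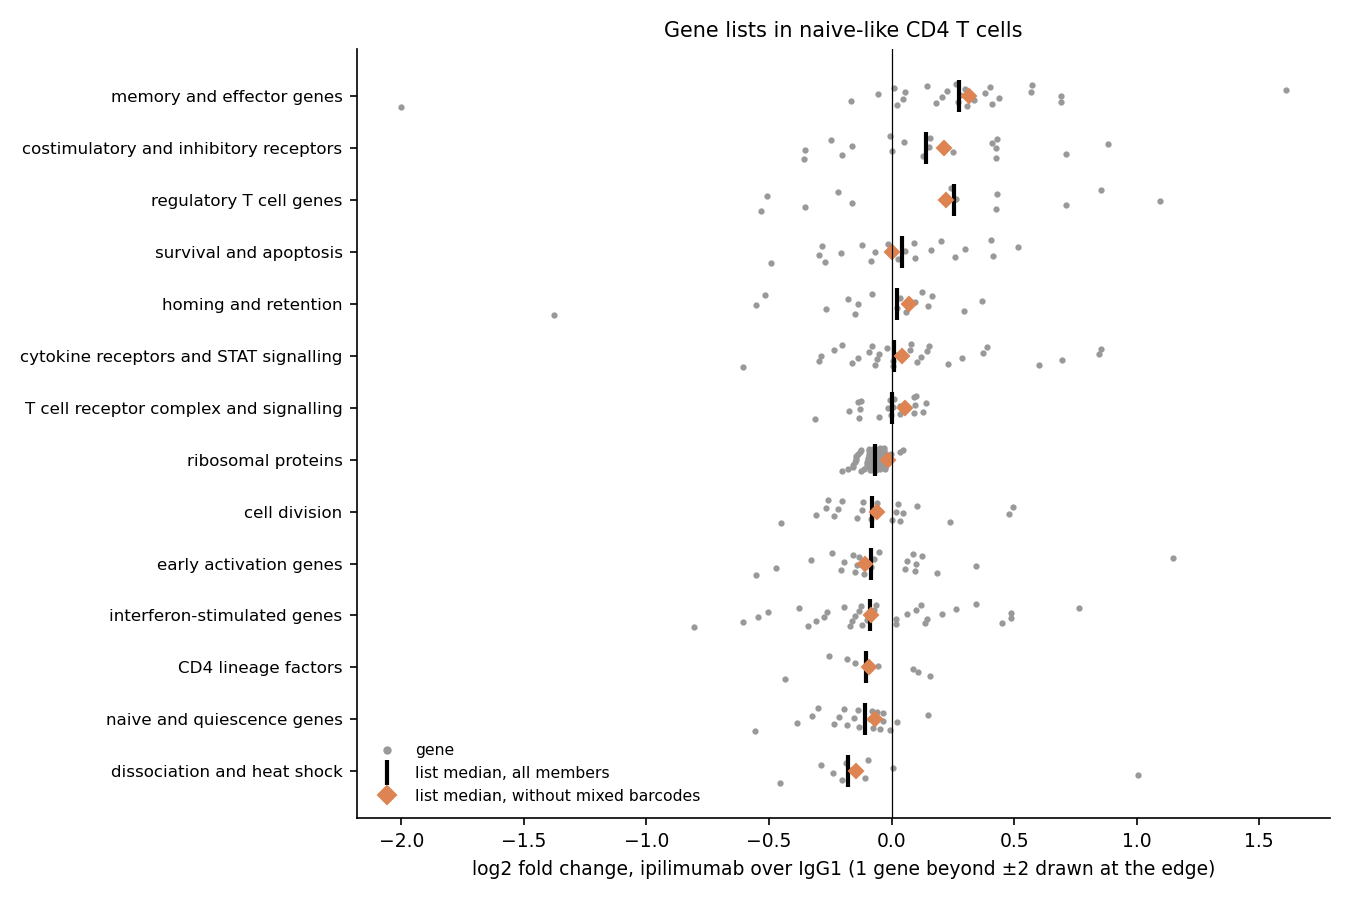
Each gray point is a tested gene at its log2 fold change (ipilimumab over IgG1), the black bar is the list's median with all members and the orange diamond the median without mixed barcodes. Memory and effector genes have a median of 0.28 and naive and quiescence genes of -0.11, and 1 gene beyond 2 in size (*Il17a*, -2.40) is drawn at the edge, a value that turns to 1.69 without IgG1 mouse 2.

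Several of the genes with the smallest p are known from macrophages. *Cd36*, a scavenger receptor of macrophages, stood at 7.16, 12.4 and 3.58 CPM in IgG1 mice and 33.6, 39.2 and 54.9 in ipilimumab mice (log2 fold change 2.49, SE 0.34, edgeR adjusted p = 0.0849). *Igf1*, the growth factor, stood at 1.54, 0.52 and 0.45 CPM against 8.29, 10.1 and 12.5 (log2 fold change 3.56, SE 0.49, edgeR adjusted p = 0.0849). In IgG1 mice a UMI of *Igf1* was found in only 2, 1 and 1 members. The size of its fold thus rests on very few counts and is a description only. *Zeb2*, a factor of myeloid and terminal effector cells, stood at 29.7, 48.6 and 59.6 CPM against 136, 145 and 101, and *Wfdc17*, a myeloid secreted protein, had a log2 fold change of 2.07. *Plek*, a substrate of protein kinase C in blood cells, stood at 46.6, 55.3 and 44.4 CPM against 88.3, 81.0 and 84.8 (log2 fold change 0.80, SE 0.13, edgeR adjusted p = 0.139). Of 14 macrophage and monocyte markers tested, 8 had an unadjusted p under 0.05, all higher under ipilimumab, beside 579 of all 9562 genes in either direction, and the list's median was 0.71. The summed level of this list was 1973, 2400 and 1601 CPM in IgG1 mice and 2179, 3362 and 4772 in ipilimumab mice, with *Ftl1* the most abundant gene. A member was called mixed here when at least 0.5% of its UMIs came from 1 of 7 lists of other cell types, a limit set after the values were seen. *Ftl1* and *Ctsd* of the macrophage list were not counted for this limit. There were 37 such barcodes, or 2.81% of members, with 3, 7 and 1 in IgG1 mice and 8, 10 and 8 in ipilimumab mice. Their share differed by 1.99 points between the groups (exact permutation p = 0.3). They were large, with median UMIs between 12134 and 100085 per mouse against between 7524 and 9052 in the rest.

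Since 27 of the 37 were chosen by the macrophage list itself, their share of its RNA is a description and no test. With *Ftl1* and *Ctsd* left out, the mixed barcodes held between 80.1% and 94.4% of the macrophage-list UMIs of each mouse. Over all mice they held 46.8% of the UMIs of *Ftl1* and 65.1% of those of *Ctsd*. Of genes outside that list they held 91.5% of the UMIs of *Cd36*, 97.4% of *Igf1*, 57.3% of *Zeb2* and 63.9% of *Plek*, but 5.97% of *Ubap2* and 1.48% of *Tgfbr3*. Of all member UMIs they held between 4.40% and 12.4% per mouse. A doublet caller removed 26 members, of which 19 were mixed. A pair of barcodes in ipilimumab mouse 3 held 12884 of that mouse's 13141 UMIs of epithelial markers. Without the 37 barcodes, 9098 genes were tested, 0 were called, 449 had an unadjusted p under 0.05, and in 4.62% and 5.35% of genes every ipilimumab mouse lay above or below every IgG1 mouse. *Cd36* and *Igf1* were then too low to be tested, *Zeb2* had a log2 fold change of 0.91 (SE 0.43, edgeR adjusted p = 0.974), *Plek* one of 0.55 (SE 0.30, edgeR adjusted p = 0.974), and the macrophage list, on which the barcodes were chosen, had a median of 0.34 over 6 genes. The medians of the memory and naive lists were 0.31 and -0.07 without these barcodes, against 0.28 and -0.11 with them.

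**Figure D5:**
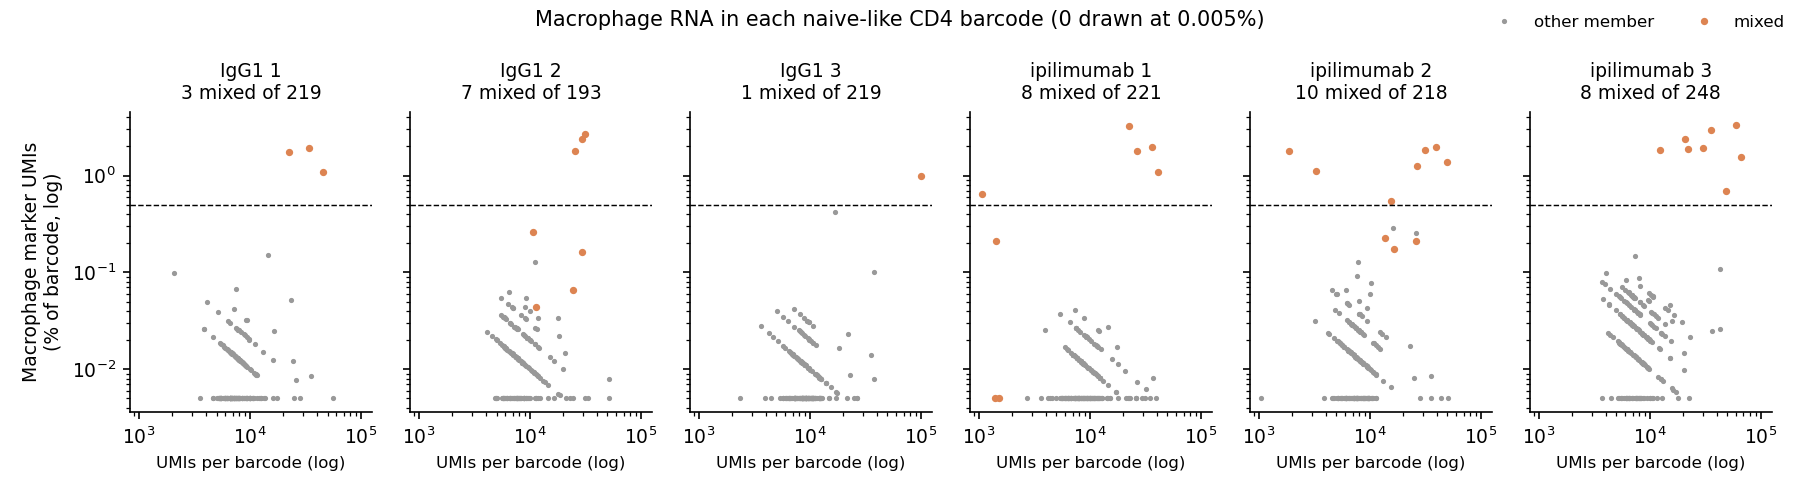
Each point is a member, with its UMIs on the horizontal axis and the percent of them in macrophage markers on the vertical axis. Both axes are logarithmic, 0 is drawn at 0.005%, and *Ftl1* and *Ctsd* are not counted. Mixed barcodes (orange) number 3, 7 and 1 in IgG1 mice and 8, 10 and 8 in ipilimumab mice, 27 of them by the macrophage list, and the dashed line is the limit of 0.5%.

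Markers of other cells behaved unevenly. *Scgb1a1*, the secretory protein of club cells, stood at 8.19, 5.68 and 2.24 CPM in IgG1 mice and 117, 65.9 and 21.0 in ipilimumab mice, and was little changed without mixed barcodes (log2 fold change 3.68 and 3.81). In barcodes under 100 UMIs, which hold mostly free RNA, it stood at 1124, 1943 and 451 CPM against 14557, 13580 and 2524. A UMI of it was found in 14.2% of members and 12.9% of the B cell gate, so the members did not stand above background. The epithelial list had a median of 2.10 over 2 tested genes, with *Sftpc* the most abundant. The B cell list had a median of 0.04 over 6 tested genes, neutrophil markers of -0.37 over 4, natural killer and cytotoxic markers of -0.16 over 7 and CD8 T cell genes outside the rule of 0.51 over 7. Without mixed barcodes the B cell median was 0.42 over 6 genes, the neutrophil median -0.16 over 2 and that of unconventional T cell genes -0.50 over 2. With all members, unconventional T cell genes had a median of -0.81 over 3 (*Il17a*, *Il23r* and *Zbtb16*), but without IgG1 mouse 2 *Il17a* and *Il23r* stood at log2 fold changes of 1.69 and 0.46. ILC2 markers had a median of -0.06 over 3 and endothelial markers of -0.19 over 3. Of the fibroblast markers only *Gsn* was tested, at 0.51 and at 0.18 without mixed barcodes, and *Tcf21* was at 0. None of the red cell and platelet markers and none of the alpha V segments passed the filter on low counts, with *Gp9* at 0, and *Trbv12-2* was the only beta V segment to pass it, at 0.37. Other settings left out doublets or every barcode with RNA of 9 other-cell markers, or removed estimated free RNA, and their calls are given below. The part of these other RNAs in the remaining gene differences was not tested further.

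Whether ipilimumab acted differently here than in neighbouring T cells was tested as an interaction on the same sums. Against naive-like CD8 T cells 0 of 10717 genes (0%) were called, with 504 at an unadjusted p under 0.05. The smallest p belonged to *Ccl9*, *Cd36* and *Abca1* (edgeR adjusted p = 0.319, 0.319 and 0.771), of whose UMIs the mixed members held 91.4%, 91.5% and 60.5%. Against *Lef1*-negative CD4 cells 0 of 9264 genes (0%) were called, with 588 at an unadjusted p under 0.05, led by *Slc7a11*, *Tcf7l2* and *Ccl6* (edgeR adjusted p = 0.283 for each), of whose UMIs the mixed members held 91.7%, 80.9% and 91.4%. For *Nrp1* the difference from the effect in CD8 cells was 0.15 (edgeR adjusted p = 0.987), and that from the effect in *Lef1*-negative CD4 cells was 0.81 (edgeR adjusted p = 0.791). Without mixed barcodes 1 gene, *Lrmda*, was called against CD8 cells, and without ipilimumab mouse 1 there were 57 calls against *Lef1*-negative cells.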

How the data were processed

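The deposited files hold raw counts of UMIs per gene and barcode, which the authors made with Cell Ranger from 10x Genomics 3' v3.1 libraries against mm10 (version 7.0.0 in the submitters' processing notes, while the study's methods and the file headers each name another version). Whether intronic reads were counted is not given in the sources used here, and the nuclear RNA *Malat1* was among the most abundant transcripts. Barcodes were filtered and gated as stated above, and counts were summed per mouse. Tests used edgeR 4.0.16 (TMM, filterByExpr, quasi-likelihood) in R 4.3.3 with Benjamini-Hochberg adjustment, DESeq2 1.42.0 as an alternative, and exact permutation tests for shares. Doublets were called with scrublet in scanpy 1.11.5, removing 0.8% per 1000 cells, as an alternative only. Members and the 27 gene lists were chosen with earlier results of these data known. Named genes were the markers, *Icos*, *Ctla4* and *Cd28*, the 5 genes of smallest p in each direction, the 5 most abundant, the 2 most abundant and 2 of smallest p per list, and 3 per interaction. Other genes named were chosen after their values were seen. Gene positions are from GENCODE for mm10. The gene tests were checked on simulated data. Counting error is the only error that depth covers. Many genes of the lists, and some that the rule for named genes picked, are not reported by name here.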

Additional observations from a re-analysis of the deposited data

How the results depend on the processing

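With 3 mice per group the exact tests could not go below 0.1 for the shares, and gene sums rested on 193 to 248 cells per mouse. Normalization by DESeq2 size factors or library totals, at least 2 UMIs of *Lef1*, removal of estimated free RNA, and removal of every barcode with RNA of 9 other-cell markers each left 0 genes called. No filter on low counts gave 256 calls, DESeq2 5, the replicate block 2 (*Scgb1a1* and *Ccl9*), and leaving out cells with 2 or more memory genes 1. Leaving out doublets gave 67 calls, all higher; 25 of them could be tested without mixed barcodes, where 0 were called, 10 had an unadjusted p under 0.05 (449 of all 9098 genes) and their median log2 fold change was 0.39 instead of 2.66. Leaving out 1 mouse gave 0 to 8 calls, the most without ipilimumab mouse 1. For the interaction with CD8 cells, no filter gave 94, no mixed barcodes 1 (*Lrmda*) and leaving out 1 mouse 0 to 2 calls; for that with *Lef1*-negative cells these were 132, 0 and 0 to 57, the most without ipilimumab mouse 1. The share of passing barcodes changed sign, to 0.299 points at 2000 UMIs, 0.0109 at 5% mitochondrial UMIs and 0.0797 after thinning, and ranged from -0.542 to 0.498 over single left-out mice (positive without IgG1 mouse 3 or ipilimumab mouse 1). Ranges over left-out mice were -2.11 to -1.09 for the share of T cells (whose groups overlapped at 2000 UMIs, at 5% mitochondrial UMIs, at 3 UMIs of *Cd3* genes, without mixed barcodes and after thinning, exact permutation p = 0.7, 0.2, 0.5, 0.2 and 0.6), -10.7 to -7.21 for *Lef1*-positive cells and 3.31 to 8.50 for memory genes. The *Lef1* share was -16.1 points after thinning and -10.1 with 2 UMIs of *Lef1*, where the groups overlapped in both, and its direction held in every alternative run. The cause of these changes was not tested. Replicate numbers did not pair the mice (same-number correlations 0.0778, 0.0479 and -0.0903), and with the replicate block the share differences had sign-flip p of at least 0.25, the smallest possible. Of 1737 alternative values of 102 named genes, 1585 kept direction and side of the threshold, 48 became significant and 104 changed sign.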
